A study of Mus musculus with 6 samples.

Results

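The genes that drive or mark epithelial-mesenchymal transition (EMT) were followed across the tumors of both NT3 lines, 10 in all: the transcription factors Snai1, Snai2, Twist1, Zeb1 and Zeb2, the epithelial genes Cdh1, Epcam and Esrp1, and the mesenchymal genes Cdh2 and Vim. They were taken by name, and all 10 had a row among the 23358 gene entries of the count table. RNA had been sequenced from 6 spontaneous tumors, each from a different female mouse. NT3 is a form of the kinase NIK that lacks its TRAF3-binding domain and escapes degradation, expressed from the ROSA26 locus once Cre removes a stop cassette. Every tumor carried NT3, and no tissue without it was analysed here. In Osx-Cre;NT3 mice Cre is driven by Osx (Sp7), a gene of the bone-forming lineage, in a Tet-OFF construct that doxycycline chow kept silent until weaning, in a line of mixed C57Bl/6J and CD1 stock. In FSP1-Cre;NT3 mice Cre is driven by FSP1 (S100a4), used for fibroblasts and also active in myeloid cells, in a line of FVB/n stock. The NT3 mice crossed to both were C57Bl/6J. The labels name the tumors by mouse. The Osx-Cre;NT3 tumors, numbered 13, 18 and 25, all grew on the trunk, with latencies of 150, 168 and 115 days. The FSP1-Cre;NT3 line gave the perineal tumors 27 and 36, with latencies of 101 and 52 days, and tumor 29 grew on the trunk, with a latency of 72 days. Line, genetic background, doxycycline chow and latency therefore cannot be told apart, and site overlaps with line. The paper also gives a lower average RNA integrity number for the Osx-Cre;NT3 tumors than for the FSP1-Cre;NT3 tumors. Average RNA quality thus also differed between the lines.

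In EMT, epithelial cells loosen their junctions and take on the shape and motility of mesenchymal cells. The zinc finger proteins Snail (Snai1), Slug (Snai2), Zeb1 and Zeb2 repress junction genes such as Cdh1, which encodes E-cadherin, by binding E-box sequences, and the basic helix-loop-helix factor Twist1 also binds E-boxes. Epcam encodes an epithelial adhesion molecule, and Esrp1 encodes a splicing regulator that keeps epithelial isoforms of its target transcripts. Cdh2 encodes N-cadherin and Vim encodes vimentin, the intermediate filament of mesenchymal cells. Fibroblasts and other stromal cells express Vim, Zeb1, Zeb2 and Twist1 without having undergone EMT, so a bulk tumor can mix both sources. In these bulk samples, fewer cells of a type and less RNA per cell cannot be told apart.

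The Snail and Zeb proteins recognise the E-box CACCTG, which reads CAGGTG on the other strand. Upstream windows of 250 bases (RefSeq starts, GRCm38.p6) were at hand for 5 of the 10 genes, Snai1, Twist1, Zeb2, Epcam and Vim. The windows of Epcam and Snai1 are shown because they alone held the motif, in capitals. In the deposited table (mm10) the Epcam entry spans chr17:87635979-87651127 and the Snai1 entry chr2:167538227-167542811. Both windows read 5′ to 3′ on the plus strand and end at the base before the RefSeq start, from which positions are counted. For Snai1 the deposited entry begins further downstream.
Epcam, chr17:87635729-87635978: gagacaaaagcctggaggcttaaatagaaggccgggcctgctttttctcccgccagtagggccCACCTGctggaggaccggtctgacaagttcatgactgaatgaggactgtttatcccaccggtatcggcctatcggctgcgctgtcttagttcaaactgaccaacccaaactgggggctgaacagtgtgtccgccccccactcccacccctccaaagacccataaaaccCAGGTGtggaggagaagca
Snai1, chr2:167537945-167538194: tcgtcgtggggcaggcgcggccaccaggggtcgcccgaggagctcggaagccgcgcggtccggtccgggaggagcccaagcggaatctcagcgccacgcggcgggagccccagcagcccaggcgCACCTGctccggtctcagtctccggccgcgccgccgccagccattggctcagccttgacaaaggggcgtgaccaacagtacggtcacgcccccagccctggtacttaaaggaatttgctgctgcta
In the Epcam window CACCTG stood at -187 to -182 and CAGGTG at -19 to -14 relative to the RefSeq start, and in the Snai1 window CACCTG stood at -126 to -121. The 6 other windows, 4 of Zeb2 and 1 each of Twist1 and Vim, held neither form. Of 32851 such windows over all genes, 17.2% held at least 1 match and 2.06% held 2 or more, so a match is common, and binding was not measured.

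All 10 genes were expressed in all 6 tumors, with at least 190 counts in every library. Levels of different genes were compared as the authors' RPKM, which divides counts by gene length and library size. Vim was the highest, at 261.7 ± 60.8 RPKM (SD, n = 6), above 99.2% of all entries. It was followed by Epcam at 131.4 ± 72.2, Cdh1 at 68.5 ± 23.3 and Esrp1 at 31.7 ± 5.38 RPKM. The epithelial transcripts and vimentin were thus both high in these bulk samples, which do not show whether the same cells held both. The paper regards the epidermal terms among its tumor genes as likely contamination by overlying skin. It also reports cytokeratin 19 staining in parts of both tumor types, in large cells that it reads as tumor cells. It calls that staining somewhat confounding and an epithelial origin unlikely. The part of skin in the levels of the epithelial genes was not tested. Among the factors, Snai2 reached 18.5 ± 7.45 and Twist1 15.1 ± 6.61 RPKM, while Snai1 (3.62 ± 2.11), Zeb2 (3.57 ± 1.68) and Zeb1 (2.44 ± 1.14) stayed in single figures. Cdh2 was at 2.58 ± 1.05 RPKM, the lowest level but that of Zeb1. Of neighbours in this order, Cdh1 (40.8 to 101.8 RPKM) and Esrp1 (23.7 to 40.5 RPKM) did not overlap over the 6 tumors, and the other neighbours did. The range of Epcam overlapped that of Vim, yet Vim exceeded Epcam, and Epcam exceeded Cdh1, within each of the 6 tumors.

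**Figure D1:**
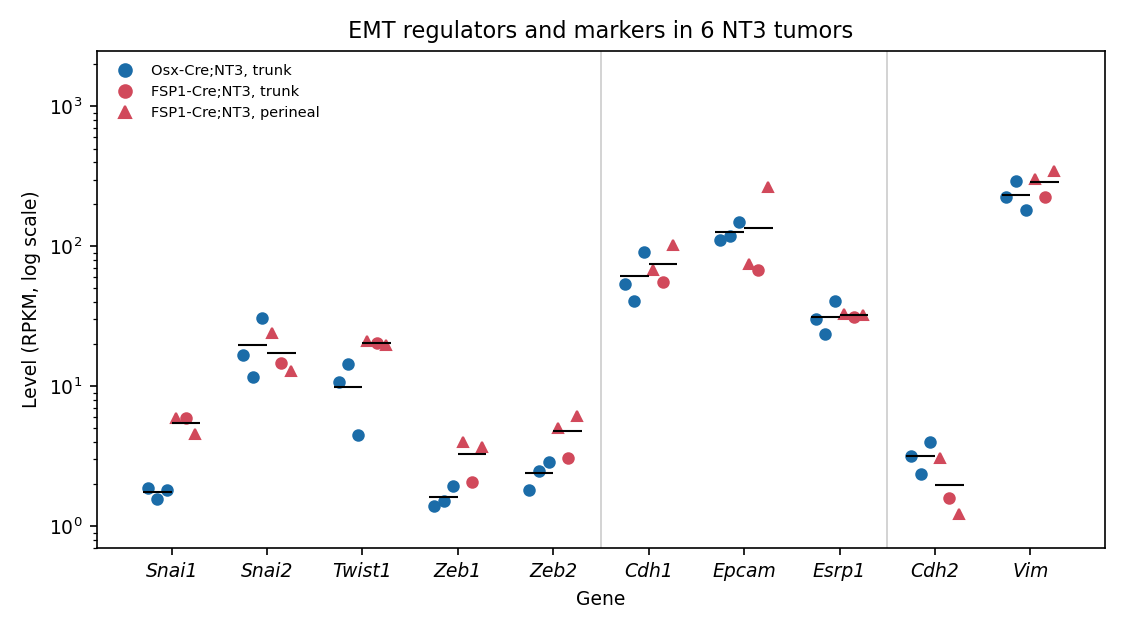
Level of each gene in each tumor in RPKM on a log axis. Each point is a tumor, coloured by line and shaped by site, and the black lines are the means of 3 tumors per line. The epithelial genes Cdh1, Epcam and Esrp1 and the mesenchymal gene Vim lie at or above 23.7 RPKM in all 6 tumors, and the FSP1-Cre;NT3 points of Snai1, Twist1, Zeb1 and Zeb2 lie above all Osx-Cre;NT3 points.

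The libraries held 51824408 to 163297772 counts on genes, and 3 counts correspond to 0.0184 to 0.0579 CPM (counts scaled to library size) before TMM. The number of tumors and the spread between them, rather than depth, therefore limited the precision for the 10 genes. The common biological coefficient of variation was 0.478, and number and spread were not separated. All counts were even numbers. If each fragment was counted once for either end, which the sources used here do not state, the fragments behind every count and behind the limit of 3 counts are fewer, and halved counts were therefore also run. The transcripts of basal keratinocytes were abundant in all tumors, with Krt5 from 2591 to 6087 CPM and Krt14 from 1637 to 4105 CPM, although the labels describe the material only as spontaneous tumors. Tumor 36 stood apart in the simple-epithelium keratins Krt8 and Krt19. Krt8 was at 2249 CPM against 243.3 to 428.8 CPM in the other 5 tumors, and Krt19 at 1091 against 11.8 to 43.4 CPM.

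The first comparison asked whether the EMT genes differed between tumors of the 2 lines. After TMM scaling, edgeR's quasi-likelihood test across the 16415 genes that passed the filter called 0 genes at an adjusted p under 0.05, 0% of those tested, with 1770 genes (10.8%) at an unadjusted p under 0.05. DESeq2 called 420 of the 15461 genes to which it gave an adjusted p (2.72%). All 10 EMT genes passed the filter. By edgeR 3 of them, Snai1, Zeb1 and Zeb2, had an unadjusted p under 0.05 and 0 of 10 passed the adjusted threshold, and by DESeq2 Snai1 alone passed. Snai1, Twist1, Zeb1 and Zeb2, 4 of the 10, were higher in each of the 3 FSP1-Cre;NT3 tumors than in any Osx-Cre;NT3 tumor, and 0 of 10 were lower in each. Over all genes tested, 9.03% were higher without overlap and 7.97% lower.

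Snai1, which encodes Snail, had the largest log2 fold change of the 10 genes. Its levels were 3.93, 3.30 and 3.52 CPM in Osx-Cre;NT3 tumors 13, 18 and 25, and 10.7, 11.8 and 8.97 CPM in FSP1-Cre;NT3 tumors 27, 29 and 36. The lowest FSP1-Cre;NT3 value was thus more than double the highest Osx-Cre;NT3 value, and the levels within each line lay close together. The difference came to a log2 fold change of 1.55 ± 0.28 (SE) with a 95% interval from 0.89 to 2.21 and an edgeR adjusted p of 0.412. DESeq2 gave 1.54 ± 0.25 with an adjusted p of 4.91e-07, and its adjusted p ranged up to 0.00331 when each tumor was left out in turn. Among trunk tumors alone, where tumor 29 was the single FSP1-Cre;NT3 tumor, the Snai1 difference was 1.72 ± 0.42 (edgeR adjusted p = 1.00).

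Zeb1 and Zeb2, paralogous repressors of epithelial genes, were ordered alike. Zeb1 was at 10.8, 11.5 and 13.8 CPM in tumors 13, 18 and 25, and at 26.5, 14.9 and 26.6 CPM in tumors 27, 29 and 36. Zeb2 was at 21.9, 29.9 and 32.0 CPM in the Osx-Cre;NT3 tumors and at 52.0, 34.9 and 69.8 CPM in tumors 27, 29 and 36. For both genes the trunk tumor of the FSP1-Cre;NT3 line, tumor 29, lay just above the highest Osx-Cre;NT3 tumor, and the perineal tumors 27 and 36 lay well above it. In edgeR the log2 fold change was 0.91 ± 0.29 for Zeb1 and 0.90 ± 0.30 for Zeb2, each with an adjusted p of 0.458. With site as a covariate these fell to 0.31 ± 0.33 for Zeb1 and 0.32 ± 0.36 for Zeb2. The ratio of Zeb2 to Zeb1 in RPKM stayed between 1.25 and 1.67 in the 6 tumors, a 1.33-fold range.

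Twist1 also did not overlap between the lines. It was at 23.1, 30.8 and 9.01 CPM in tumors 13, 18 and 25 and at 39.0, 41.7 and 39.6 CPM in tumors 27, 29 and 36. The FSP1-Cre;NT3 tumors were almost equal, whereas the Osx-Cre;NT3 tumors spread widely, with tumor 25 far below the rest. Its log2 fold change was 0.93 ± 0.42 with a 95% interval from -0.08 to 1.94 and an edgeR adjusted p of 0.463. Without tumor 25 it was 0.52.

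Snai2, which encodes Slug and was the highest factor of the 5 by mean RPKM, did not follow the others. It was at 44.7, 30.9 and 76.4 CPM in tumors 13, 18 and 25 and at 54.3, 37.2 and 32.2 CPM in tumors 27, 29 and 36. The lines overlapped, and tumor 25, the lowest for Twist1, was the highest for Snai2. For Snai2 the log2 fold change was -0.30 ± 0.38 with a 95% interval from -1.19 to 0.60 and an edgeR adjusted p of 0.751. Within the Snail pair the balance differed between the lines as a description: the RPKM ratio of Snai2 to Snai1 was 8.97, 7.39 and 17.1 in the Osx-Cre;NT3 tumors, and in the FSP1-Cre;NT3 tumors it was 4.01, 2.48 and 2.83.

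**Figure D2:**
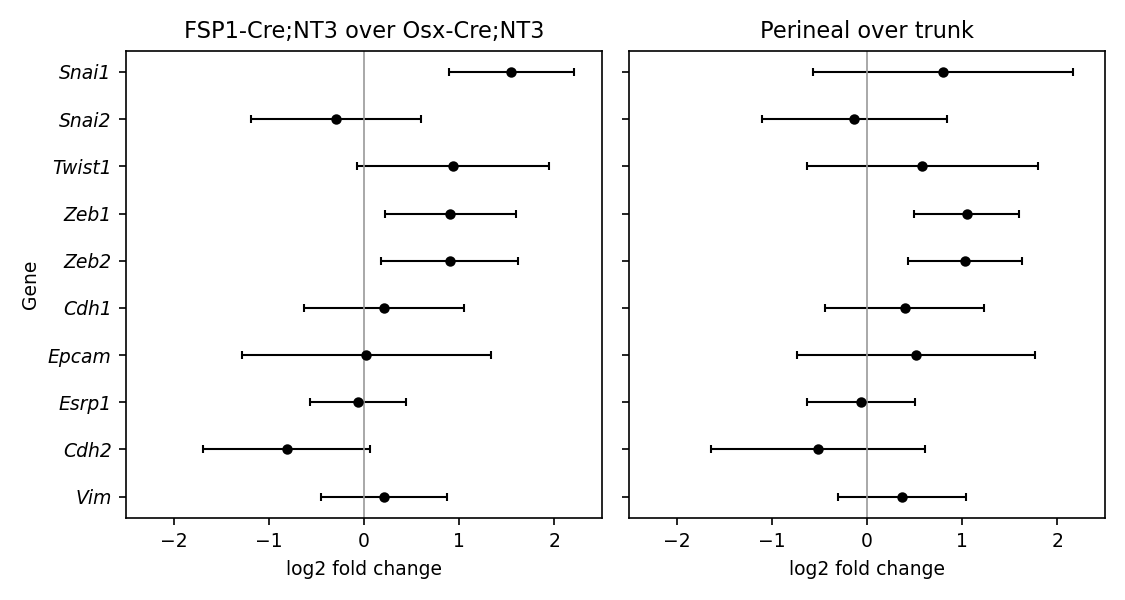
Log2 fold change of each gene from edgeR, with 95% intervals, with the lines on the left (3 FSP1-Cre;NT3 over 3 Osx-Cre;NT3) and perineal over trunk tumors on the right (2 against 4). The intervals of Snai1, Zeb1 and Zeb2 lie above 0 on the left and those of Zeb1 and Zeb2 on the right, before adjustment over all genes, and those of the epithelial genes span 0 in both.

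For the epithelial genes all 3 intervals between the lines spanned 0, and none of the 3 was called by either tool. Cdh1 was at 317.2, 238.0 and 490.2 CPM in tumors 13, 18 and 25 and at 340.3, 310.1 and 556.3 CPM in tumors 27, 29 and 36. The lines overlapped, and the highest value was that of tumor 36, which was also the highest for Zeb1 and Zeb2. The log2 fold change of Cdh1 was 0.21 ± 0.35 with a 95% interval from -0.63 to 1.05, and an edgeR adjusted p of 0.822. Esrp1 had the lowest coefficient of variation of the 10 genes over the 6 tumors, 15.2%, at 155.3, 120.9 and 192.2 CPM in the Osx-Cre;NT3 tumors and at 142.5, 150.9 and 155.0 CPM in tumors 27, 29 and 36. Its log2 fold change was -0.06 ± 0.21, with a 95% interval from -0.57 to 0.44 and an edgeR adjusted p of 0.911.

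Epcam varied the most of the 3, with a coefficient of variation of 54.5% over the 6 tumors. It was at 304.7, 325.0 and 380.5 CPM in tumors 13, 18 and 25, and at 173.7, 176.4 and 677.0 CPM in tumors 27, 29 and 36. Tumors 27 and 29 lay below every Osx-Cre;NT3 tumor and tumor 36 lay above all of them. Over all tumors its log2 fold change was 0.02 ± 0.55 (edgeR adjusted p = 0.988), with a 95% interval from -1.28 to 1.33. Without tumor 36 it was -0.94 ± 0.22 by edgeR (adjusted p = 0.680) and -0.96 ± 0.25 by DESeq2 (adjusted p = 0.0148). The estimate over all tumors thus had no settled direction.

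The mesenchymal pair was also not called. Vim was at 546.0, 707.4 and 412.1 CPM in tumors 13, 18 and 25 and at 629.6, 516.3 and 781.3 CPM in tumors 27, 29 and 36, overlapping between the lines. Its log2 fold change was 0.21 ± 0.28 (edgeR adjusted p = 0.766), with a 95% interval from -0.46 to 0.88. By immunostaining, the paper reports strong vimentin in most Osx-Cre;NT3 tumor cells. In FSP1-Cre;NT3 tumors it reports weak to moderate staining that was limited to the periphery. That is protein scored in tumor cells, whereas the Vim levels here are RNA of whole tumors, stroma included. Cdh2 was at 19.7, 14.5 and 22.9 CPM in the Osx-Cre;NT3 tumors and at 16.2, 9.23 and 7.07 CPM in tumors 27, 29 and 36. Cdh2 was lower on average in the line with the higher Snai1, with an overlap at tumors 18 and 27, and its log2 fold change was -0.81 ± 0.37 with a 95% interval from -1.69 to 0.07 (edgeR adjusted p = 0.463).

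The balance of epithelial to mesenchymal transcripts was therefore set out tumor by tumor, as ratios of RPKM and without a test. Cdh1 to Vim was 0.241, 0.140 and 0.494 in the Osx-Cre;NT3 tumors 13, 18 and 25, while tumors 27, 29 and 36 gave 0.225, 0.250 and 0.296. The FSP1-Cre;NT3 tumors lay inside the range of the Osx-Cre;NT3 tumors, whose tumors 18 and 25 were the extremes. Cdh1 to Cdh2 was 17.0, 17.2 and 22.6 in the Osx-Cre;NT3 tumors, while tumors 27, 29 and 36 gave 22.1, 35.3 and 82.9. E-cadherin transcripts thus exceeded N-cadherin transcripts per length in every tumor, by the most in tumor 36. Tumor 36 had the highest CPM of 5 of the 10 genes, Zeb1, Zeb2, Cdh1, Epcam and Vim, and the lowest of Cdh2. Tumor 25 was the highest for Snai2, Esrp1 and Cdh2 and the lowest for Twist1 and Vim.

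**Figure D3:**
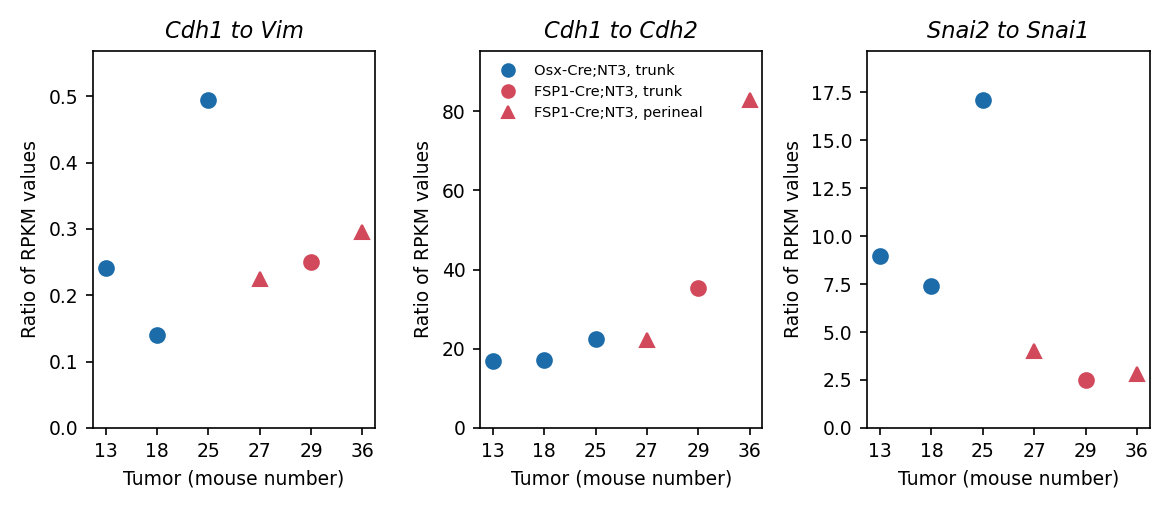
Ratios of RPKM values in each tumor, on linear axes that start at 0, coloured by line and shaped by site. For Cdh1 to Vim the FSP1-Cre;NT3 tumors lie within the range of the Osx-Cre;NT3 tumors, for Cdh1 to Cdh2 tumor 36 is the highest at 82.9, and for Snai2 to Snai1 all 3 FSP1-Cre;NT3 tumors, at most 4.01, lie below all Osx-Cre;NT3 tumors.

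Markers of other cell types moved with the line, and these are given beside the factors because stromal cells also express them. Of 8 fibroblast markers, 7 were higher in each FSP1-Cre;NT3 tumor than in any Osx-Cre;NT3 tumor, all but Fap, against 9.03% of all genes tested. Their summed level was 5261 to 6878 CPM in Osx-Cre;NT3 and 11751 to 15189 CPM in FSP1-Cre;NT3 tumors. The median of their log2 fold changes was 1.13, against 0.01 over all genes tested. Collagen genes Col1a1, Col1a2 and Col3a1 had log2 fold changes of 1.28 ± 0.33, 0.97 ± 0.25 and 1.01 ± 0.30 (edgeR adjusted p of 0.441, 0.444 and 0.458), and Pdgfra, a fibroblast receptor, 1.94 ± 0.44 (0.432). DESeq2 called these 4, against 2.72% over all genes. The lowest of the 8 was Fap, at 3.08 to 9.32 CPM, and the part of fibroblasts in the levels of the EMT genes was not tested. The summed fibroblast level was highest in tumor 29, which was also the highest for Snai1 and Twist1 and, of its line, the lowest for Zeb1 and Zeb2. Of 7 endothelial markers 6 had a positive log2 fold change (51.1% over all genes) and 3 were higher without overlap (9.03% over all genes), with sums of 140.5 to 361.9 against 381.7 to 523.0 CPM. DESeq2 called Tek alone among them.

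The remaining marker lists overlapped between the lines in their sums. The 6 basal keratinocyte markers summed to 9956 to 14247 CPM in Osx-Cre;NT3 and 5687 to 12809 CPM in FSP1-Cre;NT3 tumors, and 5 of the 6 had a negative log2 fold change. The 6 simple-epithelium markers summed to 445.8 to 867.1 CPM in 5 tumors and to 4087 CPM in tumor 36. Between the lines 5 of these 6 had a positive log2 fold change. Krt18, among their 3 highest by mean CPM, had a negative log2 fold change of -0.73 ± 0.44 (edgeR adjusted p = 0.506). The 8 leukocyte markers summed to 1179 to 2700 against 1115 to 1257 CPM. Skeletal muscle markers summed to at most 88.6 CPM, Schwann cell and melanocyte markers to at most 153.6 CPM and adipocyte markers to at most 133.9 CPM. All 6 adipocyte markers had a positive log2 fold change, with a median of 3.30, but none was higher without overlap. DESeq2 called Plin1 and Cidec among them, against 2.72% over all genes. Myod1, Dct, Plin1, Cidec and Retn were among those at or under 3 counts in at least 1 tumor.

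Other genes of the EMT program were then examined by list. Of 16 further EMT transcription factors, all tested, 9 had a positive and 7 a negative log2 fold change with a median of 0.17, and 4, Tcf4, Prrx1, Twist2 and Gsc, had an unadjusted p under 0.05 (10.8% of all genes tested), each with a positive log2 fold change. Tcf4 (E2-2), a helix-loop-helix partner, was at 42.2, 49.2 and 39.7 CPM in tumors 13, 18 and 25 and at 84.9, 69.4 and 105.3 CPM in tumors 27, 29 and 36 (log2 fold change 0.99 ± 0.21, edgeR adjusted p = 0.432, DESeq2 adjusted p = 0.0118). Gsc, a homeobox gene, had 2, 2 and 4 counts in the Osx-Cre;NT3 tumors and 168, 12 and 166 counts in tumors 27, 29 and 36, so that the perineal tumors held most of its reads. Tcf3 (64.9 to 116.5 CPM) and Foxq1 (33.1 to 91.1 CPM), with Tcf4 the highest of the list by mean CPM, which is not corrected for length, overlapped between the lines. Twist2, the paralog of Twist1, was at 7.21, 11.0 and 2.42 CPM against 13.7, 23.4 and 15.5 CPM, ordered like Twist1 with tumor 25 the lowest and tumor 29 the highest.

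Among 13 regulators that keep cells epithelial, 8 log2 fold changes were positive and 5 negative, with a median of 0.07. The highest by mean CPM, Ehf, Trp63 and Grhl2, were at 475.3 to 833.0, 197.8 to 392.9 and 54.8 to 102.1 CPM. Ehf, an epithelial ETS factor, had a log2 fold change of -0.44 ± 0.21 (edgeR adjusted p = 0.466). It was the only 1 of the 13 whose CPM fell without overlap from Osx-Cre;NT3 to FSP1-Cre;NT3, against 7.97% of all genes tested. Klf4 and Klf5, 2 of the 13, rose without overlap, against 9.03%. Klf4 was at 11.6 to 13.5 CPM in Osx-Cre;NT3 tumors and at 27.0, 23.8 and 233.4 CPM in tumors 27, 29 and 36, with a log2 fold change of 2.88 ± 0.92 (edgeR adjusted p = 0.458). Esrp2, the paralog of Esrp1, stood at 29.1 to 56.5 CPM, and the RPKM ratio of Esrp1 to Esrp2 was 1.85 to 2.94. Of 18 genes of epithelial adhesion and polarity, 7 were positive and 11 negative with a median of -0.08. Catenin genes Ctnnb1 and Ctnna1 were at 818.0 to 1051 and 315.7 to 493.9 CPM, and Spint2, a protease inhibitor, at 448.2 to 704.0 CPM. Cldn7, a claudin, had the largest log2 fold change of that list, 2.91 ± 1.53 (edgeR adjusted p = 0.474), with 210.4 CPM in tumor 36 and 3.10 to 18.1 CPM in the other 5.

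Genes of the mesenchymal effector list had positive log2 fold changes for 15 of 17, the median being 0.81, 6 at an unadjusted p under 0.05 and 6 higher without overlap, while over all genes tested 51.1% were positive, 10.8% had such a p and 9.03% were higher without overlap. DESeq2 called 4 of the 17, Cdh11, Mmp2, Col5a1 and Loxl2, against 2.72% over all genes, and edgeR called 0. These 4 encode a cadherin, a protease, a collagen chain and a collagen cross-linking enzyme. The highest by mean CPM were Sparc, at 1078 to 1681 against 2032 to 2491 CPM, and Cd44 and Mmp14, which overlapped with log2 fold changes of 0.11 ± 0.42 and 0.07 ± 0.25. Tagln, a smooth muscle and myofibroblast gene, was at 643.7 CPM in tumor 36 against 46.4 to 93.2 CPM elsewhere. Among 10 ligands, receptors and SMADs of TGF-β signaling, an inducer of EMT, 6 were positive and 4 negative with a median of 0.22. The count takes no account of whether a gene promotes or inhibits the pathway. Tgfbr3, a co-receptor, was at 6.87 to 15.1 against 26.7 to 53.8 CPM (log2 fold change 1.86 ± 0.41, edgeR adjusted p = 0.432, DESeq2 adjusted p = 0.00360). Tgfbr2 had a log2 fold change of 0.92 ± 0.29 and Tgfbr1 and Smad4 of -0.20 ± 0.18 and 0.23 ± 0.44.

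**Figure D4:**
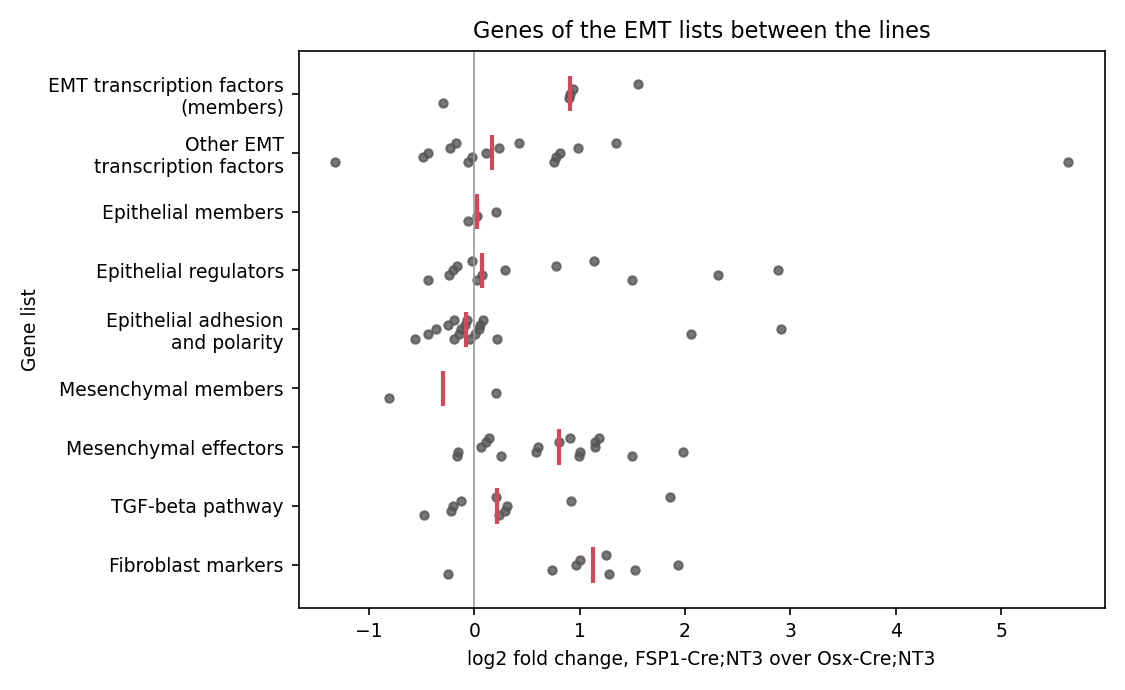
Log2 fold change between the lines, positive where FSP1-Cre;NT3 was higher, for each tested gene of the EMT lists and of the fibroblast markers, with a red bar at the median of each list. The medians are 0.91 for the 5 EMT transcription factors, 0.81 for mesenchymal effectors and 1.13 for fibroblast markers, and 0.02 for the 3 epithelial genes Cdh1, Epcam and Esrp1.

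The second comparison took the tumors by site, with 2 perineal tumors of FSP1-Cre;NT3 mice against 4 trunk tumors, of which 3 were Osx-Cre;NT3. It shares all its tumors with the first comparison. By edgeR 0 of 16971 genes passed the adjusted threshold (0%), 1784 genes (10.5%) had an unadjusted p under 0.05, and DESeq2 called 605 (3.66%). By edgeR 2 of the 10 genes, Zeb1 and Zeb2, had an unadjusted p under 0.05, and DESeq2 called the same pair. They were also the only 2 of the 10 whose CPM was higher in both perineal tumors than in every trunk tumor, while over all genes 10.2% were higher and 9.6% lower without overlap.

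Zeb1 was at 26.5 and 26.6 CPM in the perineal tumors and at 10.8 to 14.9 CPM in the trunk tumors. For Zeb1 the log2 fold change was 1.05 ± 0.24 (edgeR adjusted p = 0.263, DESeq2 adjusted p = 0.00344). Zeb2 was at 52.0 and 69.8 CPM in the perineal tumors and at 21.9 to 34.9 CPM in the trunk tumors, with a log2 fold change of 1.03 ± 0.25 (edgeR adjusted p = 0.271, DESeq2 adjusted p = 0.0314). Within the FSP1-Cre;NT3 line alone, with tumor 29 as the single trunk tumor, the log2 fold changes were 0.82 ± 0.32 for Zeb1 and 0.79 ± 0.34 for Zeb2 (edgeR adjusted p = 0.993 for each). The DESeq2 call of Zeb1 was lost without tumor 13 (adjusted p = 0.0734), 27 (0.0706) or 36 (1.00), and that of Zeb2 without tumor 13 (0.146), 18 (0.0531) or 36 (1.00).

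Snai1 and Twist1 did not share this order by site. Snai1 was at 10.7 and 8.97 CPM in the perineal tumors and at 11.8 CPM in trunk tumor 29, and within the FSP1-Cre;NT3 line its log2 fold change was -0.28 ± 0.43. Over all tumors it was 0.79 ± 0.58 (edgeR adjusted p = 0.618), a comparison in which 3 of the 4 trunk tumors were Osx-Cre;NT3. Without tumor 29, which makes the groups those of the line comparison without it, the Snai1 difference was 1.43 by edgeR (adjusted p = 0.394) and 1.44 by DESeq2 (adjusted p = 0.000503). Twist1 had 0.58 ± 0.52 over all tumors and -0.09 ± 0.27 within the line. For Cdh1 the difference by site was 0.40 ± 0.35, for Epcam 0.51 ± 0.53, for Esrp1 -0.06 ± 0.24, for Vim 0.37 ± 0.29, for Snai2 -0.13 ± 0.41 and for Cdh2 -0.51 ± 0.48, with edgeR adjusted p from 0.642 to 0.938. In RPKM, though not in CPM, both perineal tumors were above every trunk tumor for Vim.

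The lists by site differed in which markers went along. Adipocyte markers summed to 38.2 and 133.9 CPM in the perineal tumors and to 2.53 to 13.4 CPM in the trunk tumors. DESeq2 called 5 of the 6, against 3.66% over all genes. Fibroblast markers summed to 11751 and 12904 CPM in the perineal tumors and to 5261 to 15189 CPM in the trunk tumors, overlapping. Of 8 leukocyte markers 5 were higher and 1 lower in both perineal tumors than in every trunk tumor, against 10.2% and 9.6% over all genes. By edgeR 3 had an unadjusted p under 0.05 (10.5% over all genes), and DESeq2 called Itgam. Their sums overlapped at 1142 and 1257 against 1115 to 2700 CPM. Of 8 fibroblast markers 1, Pdgfra, was higher in both perineal tumors than in all trunk tumors. So were 3 of 7 endothelial markers, among them Pecam1 and Tek, against 10.2% over all genes. Endothelial sums were 414.9 to 523.0 CPM in the perineal tumors and 140.5 to 381.7 CPM in the trunk tumors, without overlap. Of the mesenchymal effectors 16 of 17 had a positive log2 fold change, 9 had an unadjusted p under 0.05 and 0 passed the edgeR threshold, while over all genes 48.5% were positive and 10.5% had such a p. The median log2 fold change was 0.72 against -0.02 over all genes. DESeq2 calls among them included Fn1 and Fbn1. Fn1, which encodes fibronectin, was at 514.4 and 589.7 CPM in the perineal tumors and at 139.1 to 277.4 CPM in the trunk tumors. Tgfbr2 was at 186.2 and 184.4 against 70.8 to 100.1 CPM (log2 fold change 1.09 ± 0.22, edgeR adjusted p = 0.263, DESeq2 adjusted p = 0.00263). Of the epithelial regulators DESeq2 called Elf3 and Klf4, of the adhesion genes Cldn7 and of the simple-epithelium markers Krt19 and Cldn3, and the values of Klf4, Cldn7 and Krt19 were highest in tumor 36. The part of these other cell types in the levels of Zeb1 and Zeb2 was not tested.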

How the data were processed

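RNA from 6 NT3 tumors was sequenced after an Illumina mRNA library preparation. The authors deposited raw read counts per gene on mm10 without normalization, and RPKM values, scaled by the deposited gene length and a library total above the summed gene counts. Their methods name HISAT2 and featureCounts, and the submitters' processing notes TopHat2 2.0.6 and HTSeq; annotation and strandedness are not given in the sources used here. Groups, sites and mouse numbers came from the labels, and p-values measure the spread between these tumors. The genes and lists were chosen with earlier results of these data known.

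The test was edgeR 4.0.16 (R 4.3.3) on these counts (filterByExpr, TMM, glmQLFit, glmQLFTest, Benjamini-Hochberg over all genes tested, threshold 0.05), after a run on simulated data. Values with ± are SE for log2 fold changes and SD for levels. DESeq2 1.42.0, other scalings and filters, halved counts, site or line as a covariate, subsets by site or line, and leaving out each tumor were alternatives, DESeq2 without each tumor having been added after the data were seen. Besides all 10 genes, the text names the 3 genes of each list with the highest mean CPM, that with the largest log2 fold change, and, chosen after their values were seen, those that make up a small count. Of 145 list genes 144 were found, 2 under an older symbol. No per-sample column was left out. The libraries held 51824408 to 163297772 counts. Limits of 3 counts cover counting error only. A few list members are not reported here singly.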

Additional observations from a re-analysis of the deposited data

How the results depend on the processing

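Between the lines, Snai1, Twist1, Zeb1, Zeb2 and Cdh2 kept their direction under all 20 alternatives, with log2 fold changes from 1.43 to 1.72, 0.52 to 1.32, 0.30 to 1.12, 0.32 to 1.11 and -1.24 to -0.58. With site as a covariate Cdh1, Epcam and Vim turned to -0.17, -0.93 and -0.10, and in trunk tumors alone to -0.17, -0.94 and -0.11. With library sizes alone, which moved the median of all genes from 0.01 to 0.13, Esrp1 turned to 0.040. Without each tumor in turn, by edgeR or DESeq2, Snai2 ranged from -0.57 to 0.10, Cdh1 from -0.12 to 0.52, Epcam from -0.96 to 0.34, Esrp1 from -0.23 to 0.095 and Vim from -0.018 to 0.42, the turns coming without tumor 25 for Snai2, Esrp1 and Vim, without 18 or 36 for Cdh1, and without 13, 18 or 36 for Epcam. Without tumor 25 DESeq2 also called Twist1, Zeb1 and Zeb2 (adjusted p = 0.0465, 0.0247 and 0.0438), and without tumor 29 Zeb1 and Zeb2 (0.00336 and 0.0341). By site, with line as a covariate Snai1, Snai2, Twist1 and Cdh2 turned to -0.27, 0.21, -0.090 and 0.33, in FSP1-Cre;NT3 tumors alone to -0.28, 0.21, -0.094 and 0.33, and with library sizes alone Esrp1 turned to 0.025. Without each tumor, Snai2 by site ranged from -0.58 to 0.20, Cdh1 from -0.029 to 0.72, Epcam from -0.81 to 1.19 and Esrp1 from -0.17 to 0.041, Epcam and Cdh1 turning without tumor 36.

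DESeq2 called 420 genes between the lines and 605 by site. Without each tumor the count between the lines was 0 each time by edgeR and by DESeq2 236, 499, 3650, 460, 731 and 196 without tumors 13, 18, 25, 27, 29 and 36. By site edgeR called 2 without tumor 25, 567 without tumor 27 and 0 otherwise, and DESeq2 318, 649, 669, 1492, 731 and 14 in the same order. The cause of these shifts was not tested. The ratios are the same by construction when computed from counts and gene length, because the library total cancels. With library sizes alone 57 of 60 levels moved by less than 1 SD. No paired analysis was possible because the lines share no mouse number. The number of tumors limits all these comparisons.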

Other observations

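The miR-200 family and miR-205, which repress Zeb1 and Zeb2, are read here only as loci in an mRNA library. Of 7 loci 6 were in the table and 2 passed the filter, Mir429 with 10 to 24 counts per tumor and Mir205 with 0 to 12, and Mir200a had 0 to 18 counts. Mature microRNAs were not measured, so these values say nothing of their levels.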
